A study of Homo sapiens with 52 samples.

Results

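The genes described are those whose symbol is PSMA, PSMB, PSMC, PSMD, PSME, PSMF or PSMG followed by a number, the subunit, activator, inhibitor and assembly genes of the proteasome. The symbols set the members, though the set was proposed with earlier results of these data known. They numbered 48 of the 59408 genes listed in every table. WI-38 cells, normal lung fibroblasts of human origin that divide only so often, were profiled by mRNA sequencing in 26 groups of 2 libraries each. Cells at a population doubling level of 32 to 46 were left untreated or were exposed for 24 h to 0.0090% SDS, a detergent that damages the plasma membrane, to 75 mM KCl, which raises calcium inside the cell, or to 250 nM doxorubicin (DXR), which damages DNA. The senescent cells that follow are called PMD-Sen after SDS, Ca2+-Sen after KCl and DDR-Sen after DXR, and each was collected at the end of the exposure (day 0), daily up to day 4 and then on days 6, 8 and 16. Replicative senescence (RS) was reached by passaging to a population doubling level of about 52, so RS cells also differed from the untreated cells in culture age. A single line was used, and the labels name no genetic change in any group.

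The 26S proteasome degrades proteins tagged with ubiquitin. Its 20S core is a barrel of alpha rings (PSMA) around beta rings (PSMB) that hold the protease sites, and its 19S cap has a ring of ATPases (PSMC) that unfold substrates and non-ATPase subunits (PSMD) that receive ubiquitin chains and remove them. PSME proteins are other caps, PSMF1 is an inhibitor, and PSMG proteins and some PSMD proteins are chaperones of assembly. The transcription factor NRF1, encoded by NFE2L1, is known to raise proteasome genes when the protease is blocked, interferon is known to induce the immunoproteasome subunits, and lower proteasome activity is a known feature of senescent fibroblasts.

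The promoters of 5 genes that rose or fell at the end of the SDS exposure are shown because each holds a match to TGACNNNGC, the core of the element bound by NRF1 and NRF2, although the genes moved in opposite directions. They are RefSeq windows (GRCh38.p14) from 250 bases before to 50 bases after the start of transcription, written 5′ to 3′ along the gene, with each match on either strand in capitals. PSMG1, PSMD9 and PSMD12 rose on day 0 of PMD-Sen, and PSME1 and PSME2 fell.
PSMG1 promoter (chr21:39183402-39183701, minus strand): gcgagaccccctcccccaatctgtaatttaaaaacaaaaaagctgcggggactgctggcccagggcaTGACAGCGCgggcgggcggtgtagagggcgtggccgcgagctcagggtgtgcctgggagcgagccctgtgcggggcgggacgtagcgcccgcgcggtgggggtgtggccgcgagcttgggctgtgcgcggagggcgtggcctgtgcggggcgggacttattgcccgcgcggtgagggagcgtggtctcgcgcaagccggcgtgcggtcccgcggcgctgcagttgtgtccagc
PSMD9 promoter (chr12:121888540-121888839, plus strand): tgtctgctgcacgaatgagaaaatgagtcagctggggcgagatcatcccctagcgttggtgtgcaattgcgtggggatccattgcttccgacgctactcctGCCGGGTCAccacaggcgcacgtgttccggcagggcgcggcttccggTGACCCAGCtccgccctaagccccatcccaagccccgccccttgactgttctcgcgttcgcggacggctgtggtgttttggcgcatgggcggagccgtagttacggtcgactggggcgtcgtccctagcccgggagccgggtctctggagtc
PSMD12 promoter (chr17:67366528-67366827, minus strand): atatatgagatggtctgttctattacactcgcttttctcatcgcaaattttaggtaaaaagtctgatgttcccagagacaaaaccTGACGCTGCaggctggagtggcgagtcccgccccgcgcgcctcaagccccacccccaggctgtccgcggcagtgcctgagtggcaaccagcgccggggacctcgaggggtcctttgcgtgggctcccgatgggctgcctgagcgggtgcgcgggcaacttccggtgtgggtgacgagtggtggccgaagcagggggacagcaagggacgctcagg
PSME1 promoter (chr14:24135944-24136243, plus strand): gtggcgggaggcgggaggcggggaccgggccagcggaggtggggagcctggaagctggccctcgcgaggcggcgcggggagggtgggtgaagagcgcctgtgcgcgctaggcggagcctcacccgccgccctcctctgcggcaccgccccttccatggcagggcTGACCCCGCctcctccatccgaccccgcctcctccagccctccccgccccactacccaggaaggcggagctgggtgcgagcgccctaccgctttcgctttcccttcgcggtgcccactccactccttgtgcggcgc
PSME2 promoter (chr14:24146561-24146860, minus strand): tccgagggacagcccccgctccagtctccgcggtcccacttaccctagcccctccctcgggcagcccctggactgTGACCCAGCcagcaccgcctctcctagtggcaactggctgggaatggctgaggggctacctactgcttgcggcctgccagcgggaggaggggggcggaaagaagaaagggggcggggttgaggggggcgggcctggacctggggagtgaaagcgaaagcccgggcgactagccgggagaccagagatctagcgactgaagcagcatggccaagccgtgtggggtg
A match stood in 29.4% of the 51 windows of proteasome genes, which cover 15 of 42 genes, and in 13.35% of all 35116 windows. Other motifs scanned were also more frequent in the windows of proteasome genes. The GC box (GGCGGG) stood in 68.63% of them and 44.99% of all windows, and the CCAAT box in 39.22% and 34.61%. On PMD-Sen day 0 the motif was found in 4 of the 6 higher genes with a window and in 3 of the 4 lower genes with one. A gene counts if any of its windows holds a match, as in the 15 of 42 genes above. Such counts of genes cannot be set against shares of windows. A match of letters does not show a bound site.

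Each value is the authors' comparison of 1 group with the same 2 untreated libraries, given as a log2 fold change and a standard error (SE). No value of a single library was used here, so the SE stands in for the spread between libraries, and overlap between the libraries of 2 groups could not be read. As all 25 comparisons share the untreated libraries, an error in these would enter each of them. A gene was tested where its mean level, the mean normalized count over the groups, was at least 10, and it was called higher or lower where the Benjamini-Hochberg adjusted p of the deposited Wald p-values, over all 14898 such genes, was under 0.05. Of the 48 proteasome genes, 44 were tested. In such bulk samples fewer cells of a kind and less RNA per cell cannot be told apart.

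The untreated libraries held 15.4 M and 18.8 M counted reads, the fewest of all, against 19.1 M to 58 M in the others. The 8 fibroblast markers, among them COL1A1 and VIM, had a level of at least 1139 in every group. The summed level of the blood markers lay between 0.443 and 22.4, and that of the endothelial markers between 25.7 and 174. That of the 4 epithelial markers lay between 325 and 2192. Of these KRT19 gave 228 to 2125 and CLDN4 21.2 to 135, while EPCAM and CDH1 stayed at or under 17.2 and 9.78.

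In untreated cells the levels per kb of annotated exon spread widely. PSMD2, which with PSMD1 is a scaffold of the 19S base, was highest at 2759 normalized counts per kb, followed by the alpha subunit PSMA7 at 2612, the ATPase PSMC3 at 1883 and PSMB5 at 1803. The other constitutive subunits with protease sites had levels per kb near that of PSMB5, with PSMB7 at 1700.4 and PSMB6 at 1512, while PSMB10, the immunoproteasome counterpart of PSMB7, stood at 97.3. The 20S assembly chaperones lay between 26.9 (PSMG4) and 241 (PSMG1) per kb. The length counts all exons annotated for a gene, so genes with many long isoforms come out low.

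**Figure D1:**
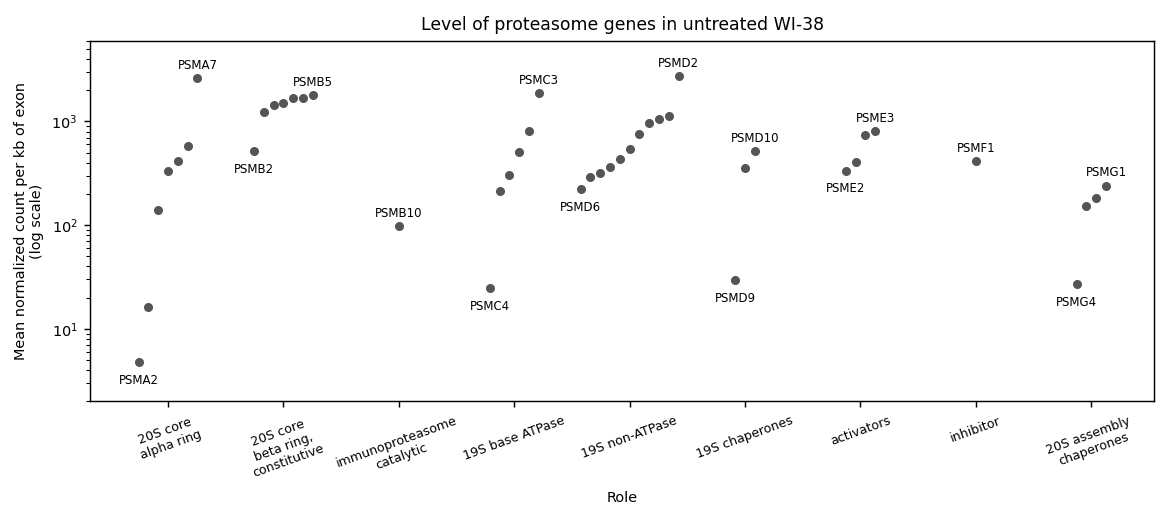
Level of the 44 tested proteasome genes in untreated cells, as mean normalized counts per kb of annotated exon (log scale), grouped by role. Each point is 1 gene. PSMD2 is highest at 2759, and PSMA2, PSMA6 and PSMC4 lie far below the other members of their rings at 4.79, 16.3 and 24.7.

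PSMA2 and PSMA6 were listed at 4.79 and 16.3 per kb beside 139 to 2612 for the other alpha genes, whose proteins enter the ring in equal number. The pseudogene PSMA6P1 had 33.2% of the mean level of PSMA6 (38.4 against 115.9), and how reads that match both were counted is not given in the sources used here. PSMC1 shared 75.8% of its exon length with overlapping genes on either strand, PSMB10 34.8% and PSMA2 34.6%, and whether strand was used in counting is not given either. Their values are uncertain to that extent.

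The untested genes were PSMB8, PSMB9, PSMB11 and PSMA8. PSMB11 is the core subunit of the thymus and PSMA8 that of the testis, and their highest levels in any group were 2.3 and 1.06. The immunoproteasome subunits PSMB8 (chr6:32840717-32844703, GRCh38) and PSMB9 (chr6:32844136-32859585) were listed at 0.263 and 0.254 at most. They lie in the major histocompatibility complex, where 33 of 35 protein-coding genes within 500 kb of PSMB8 had a median level under 10, against 37.8% of all 19467 protein-coding genes. Among these neighbours RPS18, a ribosomal protein gene used by every cell, was listed at a lowest level of 0.0983, a median of 0.944 and a highest of 2940. The values of PSMB8 and PSMB9 were for that reason not read as a lack of expression, and the cause was not tested.

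The first question was what each agent had done to these genes by the end of the 24 h. On day 0 of PMD-Sen, 7 of 44 proteasome genes were higher, where 19.8% of all genes tested were, and 5 were lower, where 20.2% were. PSMG1, a chaperone that starts the alpha ring, went from 607 to 1071 normalized counts (log2 fold change 0.82, SE 0.15, adjusted p = 2.1e-07). PSMD9, a chaperone of the ATPase ring, went from 261 to 385 (0.56, SE 0.21, adjusted p = 0.024). PSMD8, a subunit of the lid of the cap, went from 3263 to 4364 (0.42, SE 0.11, adjusted p = 0.00039). The others that rose were the lid subunit PSMD12 (0.42), the alpha subunit PSMA5 (0.39), the trypsin-like protease subunit PSMB7 (0.34) and PSMC4, whose values are described apart.

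Of the 4 activator genes, 3 fell on the same day. PSME1, which with PSME2 forms the 11S cap known from antigen processing, went from 1314 to 684 (-0.94, SE 0.18, adjusted p = 5.2e-07), and PSME2 from 1205 to 773 (-0.64, SE 0.15, adjusted p = 6.1e-05). PSME3, which forms a nuclear cap, fell too (-0.32, SE 0.12, adjusted p = 0.018), while PSME4 gave 0.01 (SE 0.10). PSMD1 (-0.38, SE 0.10, adjusted p = 0.00073) and PSMA7 (-0.24, SE 0.10, adjusted p = 0.043) were the other genes that fell. The median log2 fold change was -0.02 over the 44 genes and -0.0045 over all genes tested.

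After KCl the calls lay on the lower side. On day 0 of Ca2+-Sen 15 of 44 genes were lower, where 26.5% of all genes were, and 1 was higher, where 23.6% were, and with scaling by library totals 13 were lower and 3 higher. PSMG4, which pairs with PSMG3 in assembly, went from 280.2 to 125 (-1.16, SE 0.22, adjusted p = 8e-07). PSMD4, a receptor of ubiquitin chains, went from 3455 to 1974 (-0.81, SE 0.09, adjusted p = 3.2e-17), and PSME2 from 1205 to 739 (-0.71, SE 0.14, adjusted p = 2.8e-06). The gene that rose was the lid subunit PSMD11, from 2308 to 2975 (0.37, SE 0.09, adjusted p = 0.00026).

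After DXR, 7 of 44 were lower on day 0, where 14.9% of all genes were, and 4 of these 7 were alpha subunits. They were PSMA4 (-0.57, SE 0.11, adjusted p = 6.6e-06), PSMA7 (-0.51, SE 0.10, adjusted p = 8.3e-06), PSMA5 (-0.39, SE 0.12) and PSMA3 (-0.32, SE 0.12). The 3 that were higher, where 12.9% of all genes were, were PSMC4, PSMD4 from 3455 to 4377 (0.34, SE 0.10, adjusted p = 0.0057), and PSMD10, a chaperone of the ATPase ring also known as gankyrin, from 1275 to 1661 (0.38, SE 0.12, adjusted p = 0.0064).

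**Figure D2:**
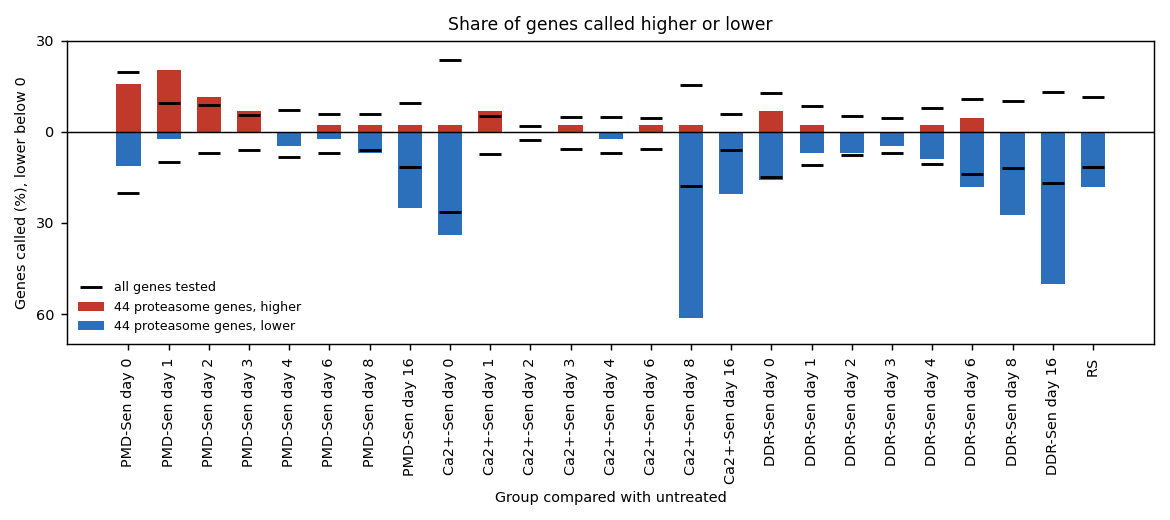
Share of the 44 tested proteasome genes called higher (red, upward) or lower (blue, downward) in each of the 25 comparisons with untreated cells, in percent, with black dashes for the same share over all 14898 genes tested. The blue bars reach furthest on day 8 of Ca2+-Sen, with 27 of 44 genes, and on day 16 of DDR-Sen, with 22 of 44.

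Differences between agents on day 0 were tested by subtracting 1 log2 fold change from the other and dividing by their combined SE. The SEs were combined as for independent values, with Benjamini-Hochberg adjustment over all genes. Both fold changes rest on the same untreated libraries, so this SE is too large and the intervals of differences are too wide. Genes that did not pass may therefore still differ. With the variance of the treated libraries alone, more genes passed between PMD-Sen and DDR-Sen, as listed below. PMD-Sen and DDR-Sen differed in 9 genes, 5 of them higher in PMD-Sen, where 15.0% of all genes were, and 4 lower, where 13.6% were. PSMG1 stood at 1071 and 472 in these groups (difference 1.18, SE 0.21, adjusted p = 5e-07). PSMA5 (0.78, SE 0.17) was also higher in PMD-Sen and PSME1 (-0.77, SE 0.24) lower. PSMD9 (0.56, 95% interval from -0.02 to 1.14, adjusted p = 0.15) and PSMB7 (0.31, 95% interval from 0.01 to 0.61, adjusted p = 0.11), which rose in PMD-Sen, did not pass this test.

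PMD-Sen and Ca2+-Sen differed in 17 genes on day 0, 15 higher in PMD-Sen, where 20.5% of all genes were, and 2 lower, where 18.1% were. PSMG4 stood at 303 in PMD-Sen and 125 in Ca2+-Sen (1.28, SE 0.31, adjusted p = 0.00023), and PSMD4, PSMD9, PSMG1 and PSMG3 differed by 0.78, 0.78, 0.76 and 0.76. Ca2+-Sen and DDR-Sen differed in 9 genes, 3 higher in Ca2+-Sen, where 18.3% were, and 6 lower, where 18.8% were. Among them were PSMD4 (-1.15, SE 0.14, adjusted p = 5.9e-15), PSMD10 (-0.95, SE 0.17) and PSMA7 (0.66, SE 0.13).

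On day 1 of PMD-Sen, 9 of 44 genes were higher, where 9.63% of all genes were, and PSME2 was lower (-0.37, SE 0.13, adjusted p = 0.028), where 10.0% were. PSMD2 went from 15048 to 22199.6 (0.56, SE 0.08, adjusted p = 9.4e-12) and was at 20533 on day 2 and 18041 on day 3, higher on both days (0.45 and 0.26). PSMB4 (0.23), PSMC5 (0.27), PSMD3 (0.23), PSMD8 (0.25) and PSME3 (0.30) rose as well. With scaling by library totals 18 genes were higher on day 1, and with no filter on low levels 5 of the 44 were called in either direction. On day 2, 5 genes were higher, where 8.8% of all genes were, and none was lower by the same test, where 6.99% were, with 12 genes at an unadjusted p under 0.05 in either direction.

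On day 1 of Ca2+-Sen 3 genes were higher, where 5.34% of all genes were, and none lower, where 7.13% were (Wald test, 11 at an unadjusted p under 0.05). PSMD2 (0.39, SE 0.07), PSMD4 (0.36, SE 0.09) and PSMD3 (0.25, SE 0.08) are all non-ATPase cap subunits, and with library totals 9 genes were called. In DDR-Sen on day 1 PSMD4 was higher (0.37, SE 0.09), where 8.5% of all genes were, and PSMG1, PSMA4 and PSMA3 were lower, where 11.0% were, and library totals gave 2 higher and 2 lower. PMD-Sen was above DDR-Sen on that day in 7 genes, where 6.88% of all genes were, among them PSME3 (0.48, SE 0.14), PSMD14 (0.47, SE 0.15) and PSMD11 (0.43, SE 0.14). PMD-Sen and Ca2+-Sen differed in no gene by this test of fold changes, where 1.5% of all genes were higher and 2.91% lower, with 4 proteasome genes at an unadjusted p under 0.05. Both terms of the test hold the error of the same untreated libraries, and with the variance of the treated libraries alone this pair differed in 4 genes.

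Levels also moved within an agent. In Ca2+-Sen 12 genes were lower on day 0 than on day 1, where 20% of all genes were, and 1 was higher, where 16.5% were. PSMD4 was at 1974 on day 0 and 4433 on day 1 (-1.17, SE 0.13, adjusted p = 1.2e-18) and PSMG4 at 125 and 293 (-1.23, SE 0.30, adjusted p = 0.00019). In PMD-Sen PSMG1 went from 1071 to 601 (0.83, SE 0.21, adjusted p = 0.00066), the 1 gene higher on day 0, where 13.4% were, and 4 were lower, where 15.6% were. In DDR-Sen no gene differed between these days by this test of fold changes, where 2.27% and 1.28% of all genes were higher and lower, with 2 proteasome genes at an unadjusted p under 0.05 and 2 that differed with the treated variance alone.

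**Figure D3:**
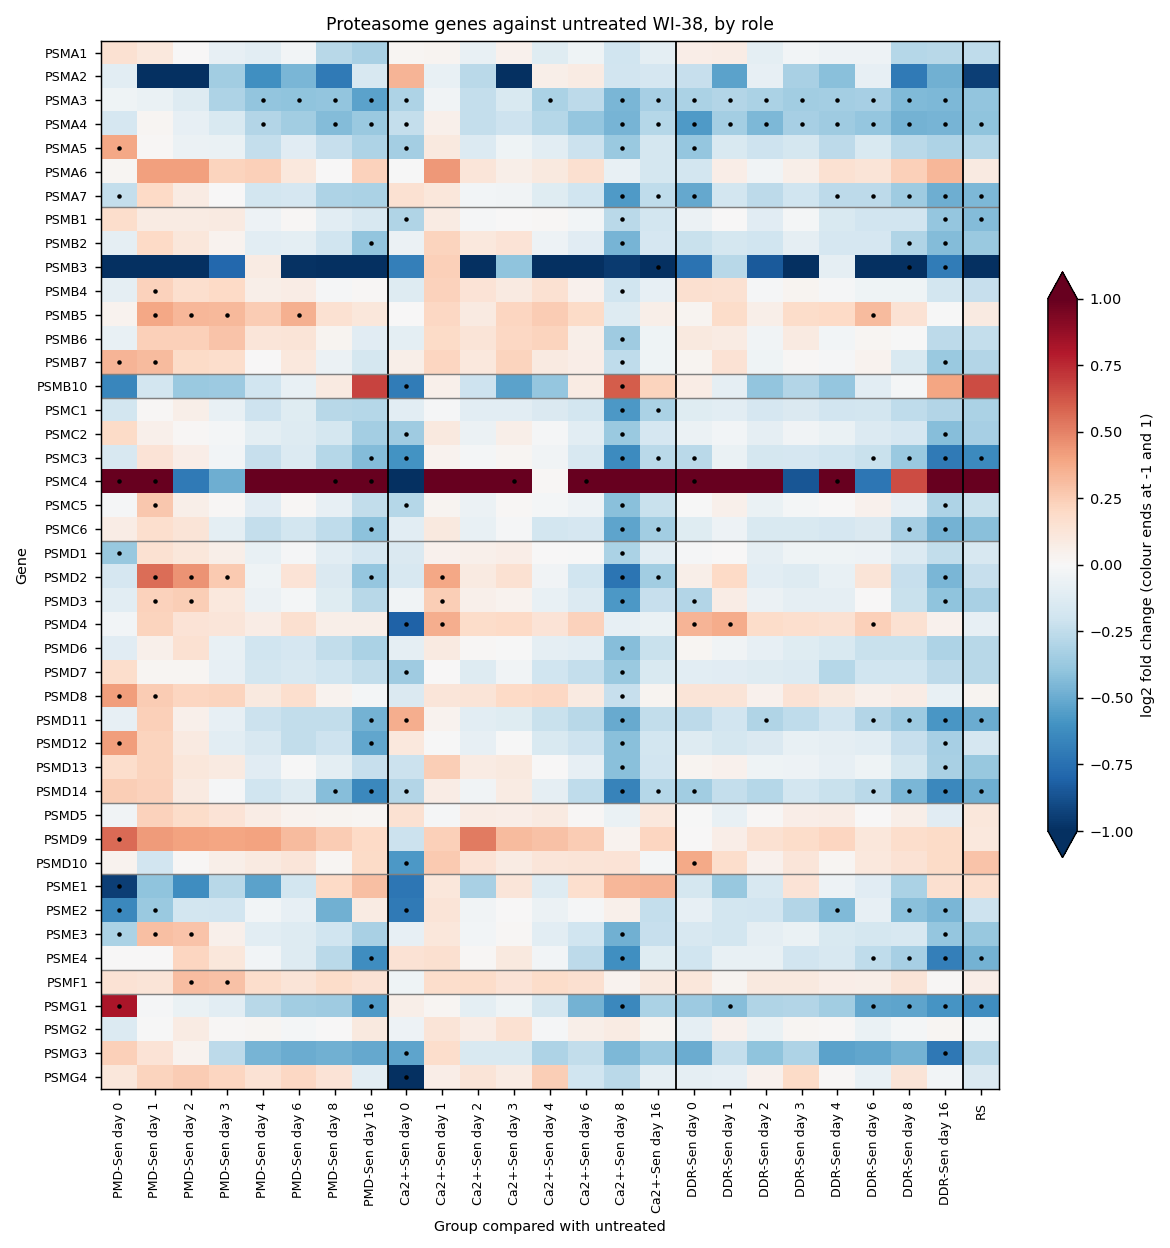
Log2 fold change against untreated cells (colour, red higher and blue lower) of the 44 tested proteasome genes, ordered by role, in the 25 comparisons, with black dots on called genes. Lower calls gather on day 0 and day 8 of Ca2+-Sen and on the late days of DDR-Sen, and PSMB3 and PSMC4 swing between extremes.

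Between days 2 and 6 at most 5 genes a day were called in PMD-Sen and at most 1 in Ca2+-Sen. On day 2 of Ca2+-Sen none was by the Wald test (5 at an unadjusted p under 0.05), where 1.77% of all genes were higher and 2.56% lower. On day 3 of PMD-Sen PSMB5 (0.33), PSMD2 (0.26) and the inhibitor PSMF1 (0.30) were higher, where 5.42% of all genes were and 6.06% were lower, while with library totals 1 gene was higher and 1 lower. PSMA3 and PSMA4 were lower on day 4 of PMD-Sen, where 8.38% of all genes were and 7.31% were higher. On day 4 of Ca2+-Sen PSMA3 was lower (-0.32, SE 0.11), where 7.03% were and 4.98% were higher, while library totals gave 1 higher and none lower. The only calls on days 3 and 6 of Ca2+-Sen were rises of PSMC4, where 4.77% and 4.71% of all genes were higher and 5.71% and 5.52% lower. On day 6 of PMD-Sen PSMB5 was higher, where 5.78% were, and PSMA3 lower, where 6.97% were, and with library totals 1 was lower and none higher.

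Day 8 of Ca2+-Sen had the most calls of the 25 comparisons. Counts of calls also depend on the SE, so they do not rank the size of the falls. The SE of PSMB1 and PSMB7 was 0.09 for each on this day. It was 0.14 and 0.12 on day 6 of Ca2+-Sen and 0.15 for each in RS. On day 8 of Ca2+-Sen 27 of 44 genes were lower, where 17.8% of all genes were, and 1 was higher, where 15.5% were. The median over the 44 was -0.37 against -0.0039 over all genes. PSMD2 stood at 9058 against 15048 (-0.73, SE 0.07, adjusted p = 9.3e-25), PSMD14, which removes ubiquitin chains, at 1418 against 2252 (-0.67, SE 0.11, adjusted p = 3.8e-09), and PSMG1 at 388 (-0.64, SE 0.15, adjusted p = 0.00014). By role, 10 of 11 non-ATPase cap genes, 5 of 6 ATPases, 5 of 7 constitutive beta genes, 4 of 7 alpha genes, 2 of 4 activators and 1 of 4 core assembly chaperones were lower. PSMD4 (-0.08, SE 0.08) was the non-ATPase cap subunit without a call, and PSMC4 (1.87, SE 1.58) the ATPase without one. The gene that rose was PSMB10, from 180.4 to 274 (0.60, SE 0.23, adjusted p = 0.032).

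After these values had been seen, day 8 of Ca2+-Sen was set against days 6 and 16. PSMD2 (-0.53, SE 0.13, adjusted p = 0.0017) and PSMC3 (-0.47, SE 0.14, adjusted p = 0.034) were below day 6, where 1.26% of all genes were, with 16 of 44 genes at an unadjusted p under 0.05. PSMD2 (-0.38), PSMC3 (-0.36) and PSME4 (-0.49) were below day 16, where 4.15% of all genes were. PSMD2 was lower than in DDR-Sen on day 8 (-0.50, SE 0.12), where 1.87% were, and higher in PMD-Sen than in Ca2+-Sen (0.58, SE 0.14), where 1.8% were.

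In DDR-Sen the lower calls numbered 3, 2, 4, 8 and 12 on days 2, 3, 4, 6 and 8, where 7.47%, 6.86%, 10.5%, 13.8% and 11.8% of all genes were lower. None was higher on days 2, 3 and 8 by the Wald test (7, 7 and 17 genes at an unadjusted p under 0.05 in either direction), where 5.18%, 4.71% and 10.3% of all genes were. The falls included PSME2 on day 4 (-0.44, SE 0.17) and PSMG1 on days 6 and 8 (-0.52, SE 0.16, and -0.53, SE 0.18). The higher calls were PSMC4 on day 4, where 7.92% of all genes were, and PSMB5 (0.32) and PSMD4 (0.24) on day 6, where 10.7% were. With library totals, 2 were higher and 3 lower on days 4 and 6 alike. On day 8 of PMD-Sen PSMA3, PSMA4 and PSMD14 were lower, where 6.04% were, and PSMC4 higher, where 5.75% were.

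By day 16 nearly all calls were falls. In PMD-Sen 11 of 44 were lower, where 11.5% of all genes were, with PSMD14 at 1438 (-0.65, SE 0.16), PSME4, a cap known from spermatogenesis, at 2729.7 against 4204 (-0.62, SE 0.15), and PSMG1 at 409 (-0.57, SE 0.19). The higher gene was PSMC4, where 9.63% of all genes were. In Ca2+-Sen 9 were lower, where 6.08% were, among them PSMB3 at 631 against 1701 (-1.43, SE 0.14, adjusted p = 1.1e-21), PSMD2 (-0.35, SE 0.07) and PSMC6 (-0.35, SE 0.11), and none was higher (Wald test, 17 at an unadjusted p under 0.05 in either direction), where 5.79% were. In DDR-Sen 22 were lower, where 16.7% were, and none higher (27 at an unadjusted p under 0.05), where 13.2% were. These included PSMG3 at 182 against 297 (-0.71, SE 0.26), PSMC3 at 2621 against 4287 (-0.71, SE 0.12, adjusted p = 5.6e-08), PSMB3 at 1048 (-0.70, SE 0.16, adjusted p = 8.4e-05) and PSME4 at 2615 (-0.68, SE 0.11, adjusted p = 2.2e-08). The level of PSMB3 jumped between days, with 2005 on day 1 and 342 on day 6 of Ca2+-Sen, as described below.

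RS cells had 8 of 44 genes lower, where 11.5% of all genes were, and none higher (Wald test, 17 at an unadjusted p under 0.05), where 11.6% were. PSMC3 stood at 2761 against 4287 (-0.63, SE 0.15, adjusted p = 0.00018), PSMG1 at 395 (-0.62, SE 0.20, adjusted p = 0.011) and PSMD11 at 1633 against 2308 (-0.50, SE 0.14, adjusted p = 0.0036), and the others were PSMA4, PSMA7, PSMB1, PSMD14 and PSME4. The median over the 44 was -0.27 in RS and, on day 16, -0.25 in PMD-Sen, -0.17 in Ca2+-Sen and -0.32 in DDR-Sen, against -0.013 to 0.0139 over all genes. No proteasome gene differed between day 16 and RS by the test of fold changes, with 0, 2 and 0 genes at an unadjusted p under 0.05 for PMD-Sen, Ca2+-Sen and DDR-Sen, while with the treated variance alone 2 differed in Ca2+-Sen. The difference of PSMC3 between DDR-Sen and RS was -0.08 (95% interval from -0.45 to 0.30). Of all genes 0.309% were higher and 0.376% lower in PMD-Sen than in RS, 2.51% and 1.74% in Ca2+-Sen, and 0.0537% and 0.094% in DDR-Sen.

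From day 0 to day 16 of PMD-Sen 10 genes were higher on day 0, where 14.6% of all genes were, and 2 were lower, where 13.7% were. PSMG1 went from 1071 to 409 (1.39, SE 0.24, adjusted p = 8.4e-08), PSMD12 from 2585 to 1348 (0.94, SE 0.21) and PSMD14 from 2665 to 1438 (0.89, SE 0.20). PSMB10 (-1.33, SE 0.43) and PSME2 (-0.73, SE 0.22) went the other way. In DDR-Sen PSMC3, PSMD2 and PSME4 were higher on day 0, where 6.44% of all genes were, and in Ca2+-Sen 2 genes were higher on day 0, where 15.3% were, and 5 lower, where 19.2% were.

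**Figure D4:**
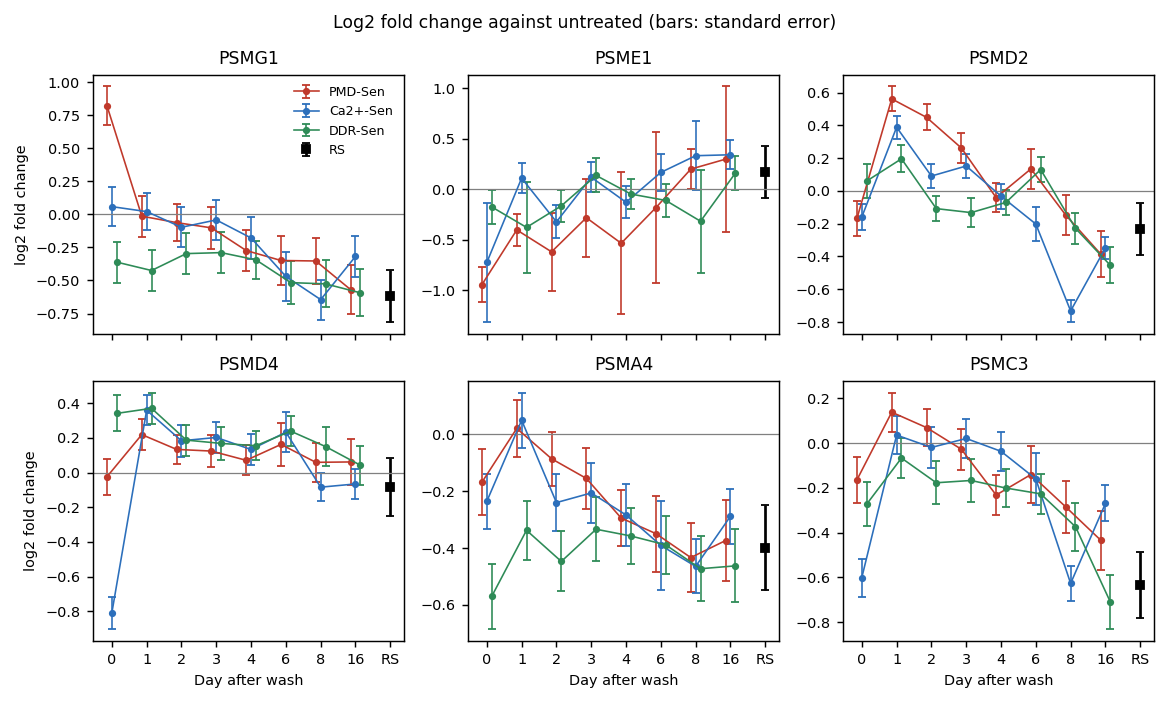
Log2 fold change against untreated cells by day for PSMG1, PSME1, PSMD2, PSMD4, PSMA4 and PSMC3 in PMD-Sen, Ca2+-Sen and DDR-Sen, with RS beside them. Points are the authors' estimates from 2 libraries a group and bars are 1 SE, and PSMG1 reaches 0.82 on day 0 of PMD-Sen while PSMD4 is at -0.81 on day 0 of Ca2+-Sen.

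PSMA3 and PSMA4 were lower on each of the 8 days of DDR-Sen, and no other proteasome gene was called in the same direction on all 8 days of any agent. PSMA4 (chr15:78540405-78552419) stood at 2345 in untreated cells, at 1579.8 on day 0 (-0.57, SE 0.11) and at 1862 on day 3 (-0.33, SE 0.11). PSMA3 (chr14:58244831-58272012) stood at 1799 in untreated cells, at 1468 on day 1 (-0.29, SE 0.11) and at 1318 on day 16 (-0.45, SE 0.13). In PMD-Sen and Ca2+-Sen PSMA3 was lower on 4 days each and PSMA4 on 3 days each. PMD-Sen and DDR-Sen differed on day 0 in PSMA4 (0.40, SE 0.16, adjusted p = 0.046), while PSMA3 did not pass (0.28, SE 0.17, adjusted p = 0.23). On days 3, 4, 6, 8 and 16 no proteasome gene differed between these agents by the same test. At most 2 a day had an unadjusted p under 0.05, and at most 1.22% of all genes were higher and 0.584% lower.

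The narrowest and widest ranges were compared within each role. The narrowest range of the log2 fold change over the 25 comparisons was 0.48 for PSMA1, 0.46 for PSMB4, 0.62 for PSMC2, 0.53 for PSMD1, 0.34 for the chaperone PSMD5, 0.78 for PSME3, 0.35 for PSMF1 and 0.29 for PSMG2, the partner of PSMG1. Of these, PSMA1, PSMD5 and PSMG2 had no call in any comparison, while PSME3 was higher in 2 and lower in 3. The widest was 6.05 for PSMC4 and 5.03 for PSMB3, both described apart. In the other roles it was 1.63 for PSMA2, 1.46 for PSMG1, 1.29 for PSMD2, 1.28 for PSME1 and 0.95 for PSMD10. PSMB10, alone tested in its role, had a range of 1.37. PSMA2 had a mean level of 20.4 and a median SE of 0.70.

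The subunits with protease sites were followed day by day. PSMB5, the chymotrypsin-like subunit, stood at 3183 in untreated cells and at 4172, 4002, 3989 and 4079 on days 1, 2, 3 and 6 of PMD-Sen, on which it was higher (0.39, 0.33, 0.33 and 0.36). It was higher also on day 6 of DDR-Sen at 3963 (0.32, SE 0.10, adjusted p = 0.0059) and had no call in Ca2+-Sen. On day 1 it differed between PMD-Sen and DDR-Sen by 0.21 (95% interval from -0.07 to 0.48) and did not pass.

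PSMB7 was higher on days 0 and 1 of PMD-Sen at 3838 and 3781 against 3039 (0.34, SE 0.11, and 0.32, SE 0.10). It was lower on day 8 of Ca2+-Sen at 2551 (-0.25, SE 0.09) and on day 16 of DDR-Sen at 2349 (-0.37, SE 0.12). PSMB6, the caspase-like subunit, had 1 call, on day 8 of Ca2+-Sen, at 1712 against 2189 (-0.35, SE 0.10, adjusted p = 0.0012). In RS the log2 fold changes were 0.09 (SE 0.14) for PSMB5, -0.24 (SE 0.16) for PSMB6 and -0.30 (SE 0.15) for PSMB7, none of them called. These SEs are larger than those on day 8 of Ca2+-Sen, where a smaller fall of PSMB7 was called.

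PSMB10 takes the place of PSMB7 in the immunoproteasome. It stood at 180.4 in untreated cells, at 111 on day 0 of Ca2+-Sen (-0.70, SE 0.28, adjusted p = 0.026) and at 274 on day 8 of Ca2+-Sen, its only calls. On day 0 of PMD-Sen it was at 115 (-0.65, SE 0.32, adjusted p = 0.088), on day 16 of PMD-Sen at 289 (0.68, SE 0.30, adjusted p = 0.087) and in RS at 284 (0.66, SE 0.28, adjusted p = 0.077).

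PSMB3 and PSMC4 stood apart from the rest. The median SE over the 25 comparisons was 1.10 for PSMC4, 0.80 for PSMB3, 0.70 for PSMA2 and 0.32 for PSMA6, and at most 0.28 for the other tested genes. PSMC4 (chr19:39971005-39981441), an ATPase of the ring, was listed at 59.1 in untreated cells, at 1789 on day 0 of PMD-Sen (4.92, SE 0.82) and at 27.1 on day 0 of Ca2+-Sen (-1.13, SE 0.59). Over the later 7 days of PMD-Sen it was listed, in order, at 909.9, 36, 42.2, 218, 622, 743 and 940.2. PSMB3 (chr17:38752736-38764231), a beta subunit without a protease site, was listed at 1701 in untreated cells, at 61.4 on day 8 of DDR-Sen (-4.79, SE 0.46) and at 1048 on day 16. The other ATPases had log2 fold changes between -0.71 (PSMC3) and 0.27 (PSMC5). Of the 10568 tested genes with a mean level of at least 100, 37 had a median SE above 0.8, PSMC4 among them. What makes these values jump was not tested.

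**Figure D5:**
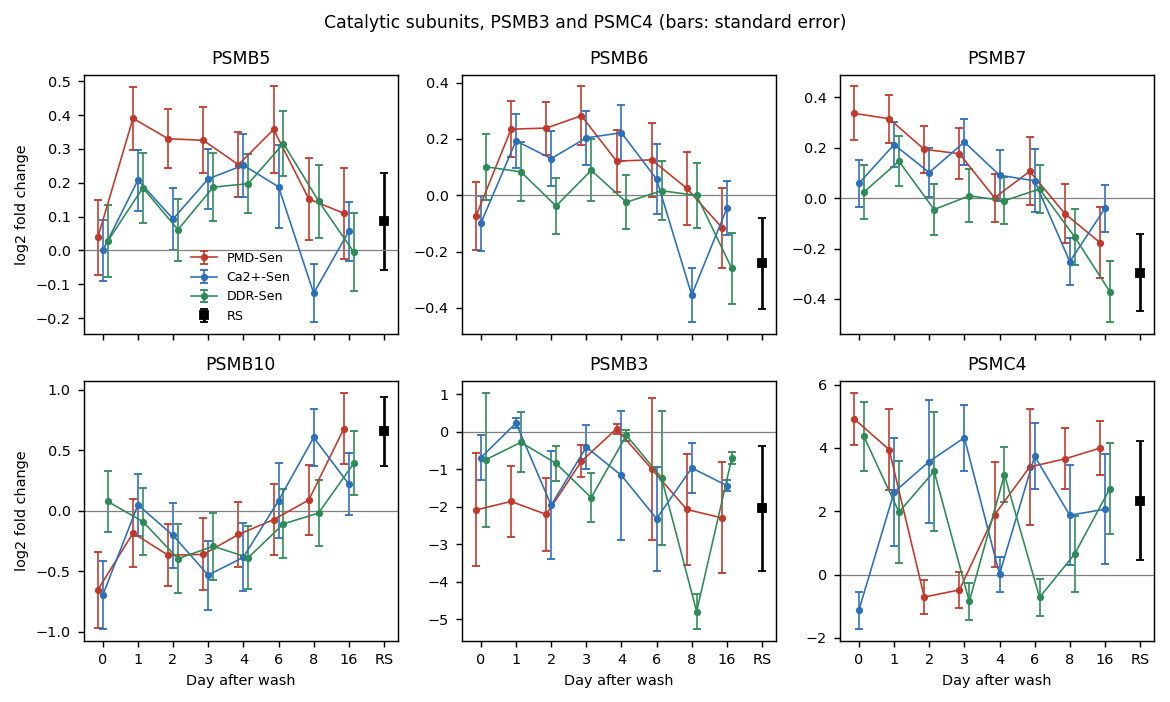
Log2 fold change against untreated cells by day for the protease subunits PSMB5, PSMB6, PSMB7 and PSMB10 and for PSMB3 and PSMC4, in PMD-Sen, Ca2+-Sen and DDR-Sen, with RS beside them. Bars are 1 SE, and PSMB10 goes from -0.65 on day 0 to 0.68 on day 16 of PMD-Sen while PSMB3 and PSMC4 jump by several units.

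Genes that act with the proteasome were taken from lists. Of 8 genes of the NRF1 axis, 5 were higher and 1 lower on day 0 of PMD-Sen, 5 higher and 2 lower in Ca2+-Sen, and 1 higher and 2 lower in DDR-Sen, with medians of 0.63, 0.55 and 0.15. Over all genes tested 19.8% were higher and 20.2% lower on day 0 of PMD-Sen, 23.6% and 26.5% in Ca2+-Sen, and 12.9% and 14.9% in DDR-Sen. NFE2L1 itself went from 7052 to 11542 in PMD-Sen (0.71, SE 0.09, adjusted p = 3.2e-13), to 6105 in Ca2+-Sen (-0.21, SE 0.08, adjusted p = 0.03) and to 8380.2 in DDR-Sen (0.25, SE 0.10, adjusted p = 0.039). It was higher on day 16 of PMD-Sen (0.49) and DDR-Sen (0.58) and in RS (0.65). These are RNA levels, and a link to the levels of proteasome genes was not tested. Among the small MAF genes, whose proteins pair with NRF1 and NRF2, MAFK rose in Ca2+-Sen (1.74, SE 0.11) and MAFG in PMD-Sen (1.68, SE 0.12).

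Of 12 genes of other proteasome-bound proteins, 2 were higher and 1 lower on day 0 of PMD-Sen, 1 and 4 in Ca2+-Sen, and 0 and 5 in DDR-Sen, beside the shares of all genes of 19.8% and 20.2%, 23.6% and 26.5%, and 12.9% and 14.9%. PAAF1, which binds the ATPases, fell in Ca2+-Sen (-1.71, SE 0.20). POMP, the maturation factor of the core, stood at 2554 in untreated cells and was called on day 8 of Ca2+-Sen at 1870.5 (-0.45, SE 0.11, adjusted p = 0.00032).

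Of 9 genes of shuttles and the unfoldase, 1 was higher and 2 lower on day 0 of PMD-Sen, 2 and 1 in Ca2+-Sen, and 1 and 1 in DDR-Sen, where 19.8% and 20.2%, 23.6% and 26.5%, and 12.9% and 14.9% of all genes were. These counts are near or below those shares. SQSTM1, a receptor that brings ubiquitin-tagged cargo to autophagy, fell in PMD-Sen (-1.64, SE 0.15). Of 5 interferon-linked genes 4 were tested, with 0 higher and 2 lower in PMD-Sen, 2 and 1 in Ca2+-Sen, and 1 and 0 in DDR-Sen, a list too short to set against the same shares. The list holds TAP1 and TAP2, which lie near PSMB8 and PSMB9 on chromosome 6 and had median levels of 0.354 and 1.27. At least 1 of them is among the 4 tested, so the counts are uncertain to that extent. NLRC5, an activator of antigen presentation genes, went from 489 to 166 in PMD-Sen (-1.56, SE 0.22) and to 904 in Ca2+-Sen (0.89, SE 0.14).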

How the data were processed

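WI-38 cells were profiled by mRNA sequencing in 26 groups of 2 libraries. The submitters' processing notes name Trim Galore, HISAT2, HTSeq, featureCounts, DESeq2 and the builds GRCh38 and hg38, and their versions and roles are not given in the sources used here. The 52 deposited files held 25 distinct tables, each a comparison of 1 group with the 2 untreated libraries. For each gene the authors deposited a mean normalized count (a signal, divided by size factors), a log2 fold change and the standard error of it, a Wald score, and a p-value with its adjusted p-value, in the form DESeq2 writes. The study describes the 2 libraries of a group as independent samples. The p-values rest on the fold change and its standard error, and the spread between the 2 libraries themselves could not be read.

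From these, the level of each group was solved from the mean and the fold change and put on 1 scale over tables by 8645 genes above 200 in every table. The deposited p-values were adjusted again by Benjamini-Hochberg over the 14898 genes with a mean level of at least 10 and called under 0.05. Differences between groups were tested as differences of log2 fold changes, with the error of the untreated libraries counted in both terms, over 35 pairs. Adjustment was made within each pair. The design allowed for a count model, which was not used, as the tables hold no counts per library. Counted reads per library were recovered from the steps of low values and ran from 15.4 M to 58 M. Positions and exon lengths come from GENCODE on GRCh38 and promoters from RefSeq GRCh38.p14.

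The members and lists were chosen with earlier results of these data known. Named genes were the protease subunits, the 3 largest called rises and falls of a comparison among genes with a mean level of at least 100, the widest and narrowest range of each role, members with a median standard error above 0.8, members called on every day of an agent, and, in lists of partner genes, NFE2L1, POMP and the called gene with the largest change on day 0 of an agent. The result of 1 list, genes of ubiquitin supply, is not reported here. Others named outside this rule were chosen after their values were seen. Alternatives were a size threshold, other filters, scalings and adjustments, another variance, and leaving out genes with large standard errors. Scripts were tested on simulated data. The scripts ran in Python 3.11.15 with SciPy 1.17.1 for tests, pandas 2.3.3 and NumPy 2.4.6 for tables, and matplotlib 3.10.9 for plots. The RS comparison was held by 4 files, among them the 2 of the untreated libraries, and was read once.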

Additional observations from a re-analysis of the deposited data

Results flagged for a closer look

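Some proteasome genes differed between agents by the test of the difference of log2 fold changes (Benjamini-Hochberg adjusted over all genes tested). On day 0, 9 of 44 genes differed between PMD-Sen and DDR-Sen, where 15.0% of all genes were higher and 13.6% lower. PMD-Sen and Ca2+-Sen differed in 17, 15 of them higher in PMD-Sen, where 20.5% of all genes were, and 2 lower, where 18.1% were. Between Ca2+-Sen and DDR-Sen 9 genes differed, where 18.3% of all genes were higher and 18.8% lower. With both directions counted, the shares on day 0 were close to or below those of all genes. By direction, the share higher in PMD-Sen than in Ca2+-Sen was above that of all genes, and the share lower was below. On day 1, 7 differed between PMD-Sen and DDR-Sen, where 6.88% and 5.45% of all genes did, and 1, PSMB2, between Ca2+-Sen and DDR-Sen, where 4.66% and 3.08% did (0.40, SE 0.13). On day 2, PSMD2 was the 1 gene that differed between PMD-Sen and DDR-Sen, where 4.7% and 2.61% of all genes did (0.56, SE 0.11) and the 1 gene between PMD-Sen and Ca2+-Sen, where 1.03% and 1.35% did (0.36, SE 0.11).

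Later differences were few among the proteasome genes, while the shares of all genes varied between pairs, up to 4.42% higher. The 1 gene on day 3 between PMD-Sen and Ca2+-Sen, the 1 on day 3 between Ca2+-Sen and DDR-Sen and the 1 on day 6 between Ca2+-Sen and DDR-Sen were all PSMC4, whose standard errors are large. Of all genes 0.0604% and 0.0873%, 1.15% and 0.396%, and 0.638% and 0.0336% were higher and lower in these pairs. On day 8, PSMD2 was the 1 gene between PMD-Sen and Ca2+-Sen, where 1.8% and 1.48% of all genes were higher and lower, and 2 genes, PSMD2 and PSMB3 (3.83, SE 0.81), differed between Ca2+-Sen and DDR-Sen, where 3.01% and 1.87% were. On day 16, 3 genes differed between Ca2+-Sen and DDR-Sen, where 4.42% of all genes were higher and 1.96% lower, namely PSME4 (0.57, SE 0.14), PSMC3 (0.44, SE 0.14) and PSMB3 (-0.73, SE 0.21). The values of PSMB3 also jump between days, with a median standard error of 0.80 over the comparisons.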

How the results depend on the processing

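Of the medians over the proteasome genes, those near 0 changed sign with library totals, to 0.01 and -0.01 on days 0 and 3 of PMD-Sen and to 0.0025 on day 2 of Ca2+-Sen, and that of day 3 of PMD-Sen also when centred, to -0.0015. The single call on day 4 of Ca2+-Sen, a lower gene, gave way to a single higher gene with library totals. No paired analysis was possible because the tables hold no values per library, and leaving out replicates could not be run for the same reason. Depth, read as counted reads, was lowest in the untreated libraries, which enter every comparison. The causes of the changes below were not tested.

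With a log2 fold change of at least 0.5 required, the calls were 5, 2, 0, 0, 0, 0, 1 and 6 on the 8 days of PMD-Sen in order, 7, 0, 0, 11 and 1 on days 0, 1, 4, 8 and 16 of Ca2+-Sen, 3, 0, 0, 0, 1, 1, 2 and 7 on the 8 days of DDR-Sen, and 2 in RS. With the adjusted p as deposited, 4 were called on day 4 of PMD-Sen and 2 on day 4 of Ca2+-Sen. With a mean level of at least 100, 5 and 4 were called on days 3 and 4 of PMD-Sen and 2 on day 4 of Ca2+-Sen, and 2 differed between PMD-Sen and DDR-Sen on day 2, 2 between PMD-Sen and Ca2+-Sen on day 8 and 9 between days 0 and 1 of PMD-Sen. With no filter, 5, 1 and 0 were called on days 1, 3 and 6 of PMD-Sen, 0 on day 4 of Ca2+-Sen and 2, 1 and 0 on days 1, 2 and 3 of DDR-Sen.

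With library totals, 18 and 1 were called on days 1 and 6 of PMD-Sen, 9 on day 1 of Ca2+-Sen and 5 on day 6 of DDR-Sen, and 2 differed between Ca2+-Sen and DDR-Sen on day 1, 0 between PMD-Sen and Ca2+-Sen on day 2, 2 between them on day 8, 8 between days 0 and 1 of PMD-Sen and 5 between days 8 and 16 of Ca2+-Sen. Centred on the median, 0 differed between PMD-Sen and Ca2+-Sen on day 2. Without genes with a median standard error above 0.8, and without those above 0.5 (chosen after seeing the data), 0 were called on days 3 and 6 of Ca2+-Sen.

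With only the variance of the treated libraries, PMD-Sen and DDR-Sen differed in 18, 11, 13 and 2 genes on days 0, 1, 2 and 3, PMD-Sen and Ca2+-Sen in 4, 3, 8 and 1 on days 1, 2, 8 and 16, and Ca2+-Sen and DDR-Sen in 20, 7, 1, 3, 1, 2, 11 and 6 on the 8 days in order. Day 0 then differed from days 1 and 16 in 17 and 19 genes in PMD-Sen, 27 and 16 in Ca2+-Sen and 2 and 14 in DDR-Sen, day 8 of Ca2+-Sen from days 6 and 16 in 16 and 12, and day 16 of Ca2+-Sen from RS in 2.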
